A study of Mus musculus with 20 samples.

Results

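The gluconeogenesis and glycogen genes described here are G6pc, Pck1, Fbp1, Pcx, Gckr, Pklr, Gys2 and Pygl, picked by gene symbol from a table of RNA-seq counts of mouse liver. They are 8 of the 55421 gene entries in that table, and all 8 passed the filter on low counts. Together they took 0.370% to 0.730% of the counts of a library.

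Gluconeogenesis is the pathway by which hepatocytes make glucose from lactate, alanine and glycerol during fasting, and glycogen is the store that the liver fills after a meal and empties between meals. Pcx, Pck1, Fbp1 and G6pc encode the enzymes that bypass the irreversible steps of glycolysis. Pklr and Gckr act on the glycolytic side, as liver pyruvate kinase and as a regulatory protein of hepatic glucose use, while Gys2 and Pygl are the liver enzymes that build and break down glycogen. Insulin, glucagon, feeding and the daily clock are known to set the transcript levels of several of these genes.

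The livers came from wildtype C57BL/6 mice, labelled female, that received a retro-orbital injection at 6 months of age. The AAV8 vector AAV8-Tbg-saCAS9/U6-sgRNA carried Cas9 of Staphylococcus aureus under Tbg, a hepatocyte promoter, which limits Cas9 to hepatocytes, and a guide against HIRA (the HIRA groups) or against Rosa26 (the control groups). HIRA is a chaperone of the histone variant H3.3, and Rosa26 is a locus used as a neutral target, so the vector and Cas9 were shared by all groups. Livers were taken 3 weeks or 6 months after injection, with 5 libraries in each of the 4 groups, and the comparisons ask whether these genes differ with the guide at each time, and with time for each guide. In the study's text these mice are male, in its legend and the labels female. Food was available without restriction under a daily cycle of light and dark, while the hour of collection and any fast before it are not given in the sources used here.

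Total counts were 19916430 to 24079736 per library. Hira had 6.04 to 8.54 normalised CPM (counts scaled to library size) in the Rosa26 group and 4.15 to 5.95 in the HIRA group at 3 weeks (log2 fold change -0.48 ± 0.14, SE, edgeR adjusted p = 0.197), and 4.82 to 7.32 against 4.96 to 6.51 at 6 months (-0.10 ± 0.14, edgeR adjusted p = 0.794). The study reported, by western blot, that HIRA protein was lost with the HIRA guide relative to Rosa26. Protein was not measured here, and counts of Hira RNA do not stand for it. The library labelled HIRA 6 months replicate 5 went against the labelled sex. It held 9 counts of Xist, which silences an X chromosome in female cells, and 2041 counts over 4 Y-linked genes, where the other 19 libraries held 6286 to 8436 and 0 to 13. This discordant library was kept, and it held the highest Hira of its group (4.96 to 5.64 normalised CPM in the other 4). The 8 hepatocyte markers summed to 83904.5 to 161594 CPM over the 4 groups with none at 0, and no marker of hepatocytes, biliary, stellate, Kupffer, endothelial or lymphoid cells passed an adjusted p of 0.05 by guide. At 6 months the 7 stellate markers summed to 199 to 816 CPM in the HIRA group and 188 to 345 in the Rosa26 group, and the 7 Kupffer markers to 146 to 1014 and 236 to 1721. The discordant library set the lower end of both in the HIRA group, whose other 4 libraries had 314 to 816 and 365 to 1014 CPM. Single libraries set the upper ends of 816 (HIRA replicate 3), 1014 (HIRA replicate 4) and 1721 (Rosa26 replicate 3). The next highest of those groups were 369, 480 and 409 CPM. The sources do not say that every library of a group came from a separate mouse, and p-values measure the spread between these libraries.

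Levels of different genes were compared per length, in the FPKM values that the authors deposited, which scale reads to transcript length and depth. In the Rosa26 group at 3 weeks Pck1 was highest at 907 ± 246 FPKM (SD, n = 5), followed by Fbp1 at 633 ± 33.3 and G6pc at 206 ± 73.3. Pygl followed at 144 ± 27.3 FPKM, Gckr at 117 ± 10.7, Pcx at 114 ± 14.7, Pklr at 100.1 ± 31.7 and Gys2 at 40.6 ± 4.85. The SD ranges overlapped between Pck1 and Fbp1, between G6pc and Pygl, and among Pygl, Gckr, Pcx and Pklr, whereas Gys2 lay below all others. The same order did not hold in the other groups. Fbp1 stood above Pck1 in the HIRA group at 3 weeks (677 ± 111 against 650.2 ± 379 FPKM) and in the Rosa26 group at 6 months (676 ± 70.6 against 597 ± 157 FPKM), in each case within the SD. G6pc stood in the seventh place, not the third, in the Rosa26 group at 6 months, at 70.5 ± 36.9 FPKM, where only Gys2 was lower. In the HIRA group at 6 months G6pc had 92.4 ± 14.5 FPKM and Pklr 97.2 ± 32.6, and without the discordant library their order turned (88.4 ± 13.0 and 86.8 ± 26.5 FPKM, n = 4), in both cases within the SD. Gys2 was lowest in every group, with 48.3 ± 19.6 FPKM in the HIRA group at 6 months and 39.8 FPKM without the discordant library.

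The promoters of 3 members are shown because these genes carry the covariation described further on, with G6pc and Pck1 moving together and Pklr moving with the glycogen genes. RefSeq start sites on GRCm38.p6 gave windows of 250 bases before and 50 after the start for 7 of the 8 members, 9 windows in all. Each stretch runs along the plus strand, on which all 3 genes lie, from the start of the window to the next annotated exon, and the G6pc stretch takes in the first base of that exon to complete a match. The Pklr stretch lies inside the gene as GENCODE draws it, before a start further in. Capitals mark TTACGTNA, a variant of the cAMP response element, in G6pc and Pck1 and, in G6pc, also CAAAACA, a core that FOXO factors are known to bind (TGTTTTG on the other strand). In Pklr they mark the carbohydrate response element, the letters CANGNG and CNCNTG with 5 bases between them.
G6pc chr11:101367466-101367561: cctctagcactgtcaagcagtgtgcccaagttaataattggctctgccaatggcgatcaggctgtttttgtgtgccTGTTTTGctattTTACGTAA
Pck1 chr2:173152823-173153047: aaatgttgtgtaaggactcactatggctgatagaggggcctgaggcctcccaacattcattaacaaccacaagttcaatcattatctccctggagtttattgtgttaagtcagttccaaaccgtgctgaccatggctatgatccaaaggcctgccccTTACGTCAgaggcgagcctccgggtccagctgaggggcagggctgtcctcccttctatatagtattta
Pklr chr3:89136373-89136571: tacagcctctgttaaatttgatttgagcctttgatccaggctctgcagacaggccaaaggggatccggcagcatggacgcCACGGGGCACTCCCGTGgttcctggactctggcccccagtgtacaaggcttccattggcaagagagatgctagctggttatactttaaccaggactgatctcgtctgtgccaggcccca
TTACGTNA began 162 bases before the RefSeq start of G6pc and 93 bases before that of Pck1, and it was present on either strand in 0.898% of 32851 windows of the same length. The G6pc match also reads as TTANGTAA, the D-box bound by clock factors such as DBP, which 2.32% of windows held. CAAAACA lay 174 bases before the start of G6pc and was also in the Gckr window, and 6.28% of windows held it. The carbohydrate response element of Pklr began 170 bases before the start, and 0.557% of windows held one. A window of Pcx held the E-box CACGTG (7.15% of windows). The full cAMP response element TGACGTCA (1.79% of windows) and TTGTTTAC, a forkhead site (1.23%), were in none of the 9 windows. Pygl had no match to any of these sequences, and Gys2 had no window to search. The matches found describe letters only.

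At neither time did the guide change a member past the thresholds of an adjusted p under 0.05 and an absolute log2 fold change over 1. At 3 weeks the count was 0 of 8 members, where 0.114% of all 22867 tested genes passed both thresholds and 0.197% passed the adjusted p alone. At 6 months it was again 0 of 8, where 0.332% passed both and 1.31% the adjusted p alone. At an unadjusted p under 0.05, 2 members were lower in the HIRA group at 3 weeks (G6pc and Pcx) against 8.87% of all genes in either direction, and 1 was lower at 6 months (Pcx) against 15.5%. Without the discordant library 2 were lower at 6 months (Pcx and Gckr) against 17.7%. No member separated the 2 groups completely at either time, where 2.69% of all genes did so at 3 weeks and 3.15% at 6 months. The median log2 fold change of the 8 members was 0.00 at 3 weeks and -0.13 at 6 months, beside -0.01 and 0.03 over all genes, and -0.15 at 6 months without the discordant library. DESeq2 on the same contrasts also left every member above an adjusted p of 0.05. In bulk liver, fewer cells of a type and less RNA per cell cannot be told apart.

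**Figure D1:**
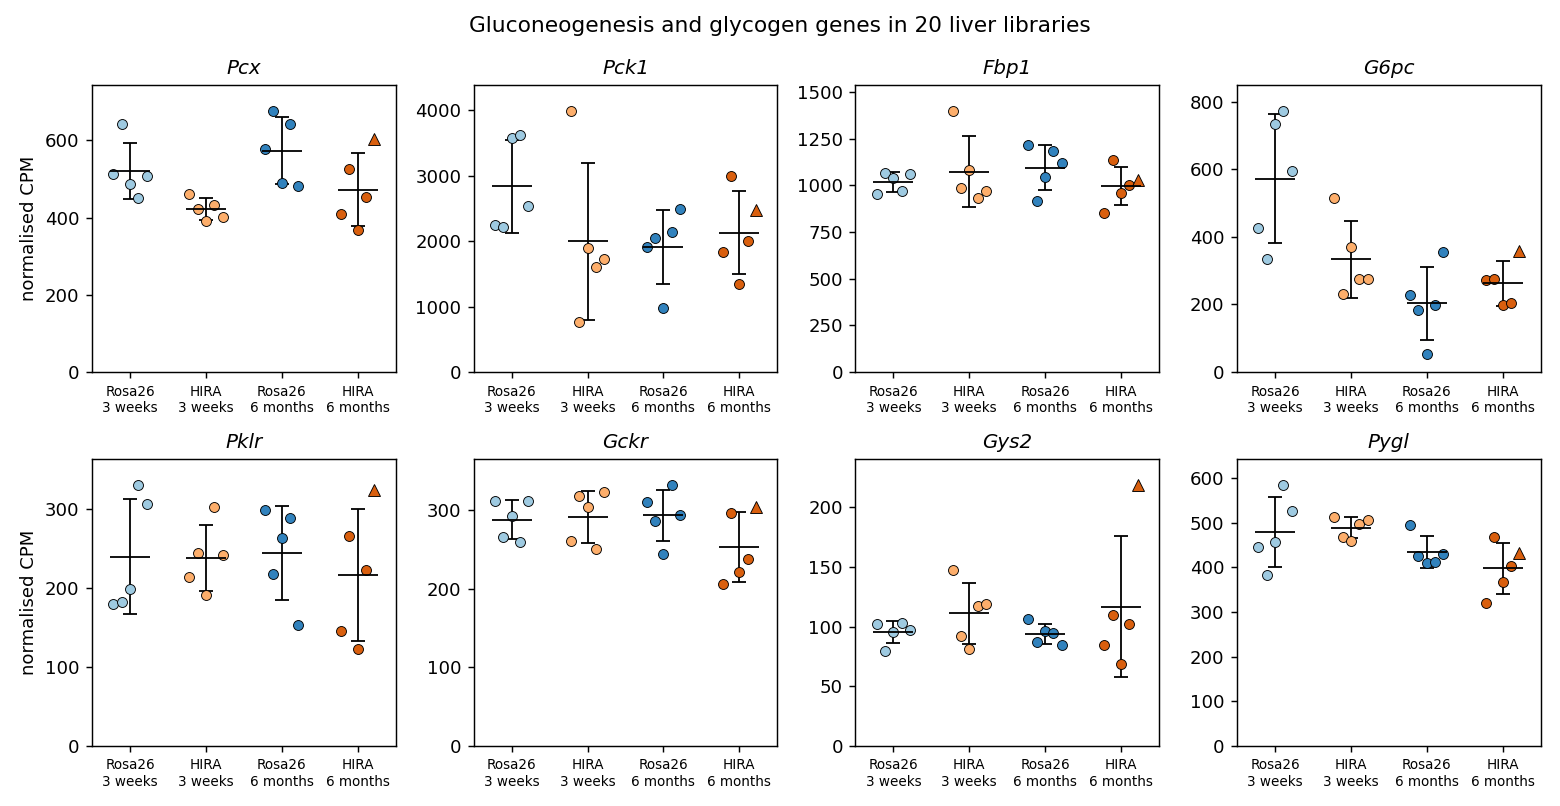
Normalised CPM (vertical axes, from 0) of the 8 genes in the 20 libraries, by guide and time (horizontal axes). Points are libraries, bars are the mean ± SD of 5, and the triangle is the discordant library (HIRA 6 months replicate 5), which is the highest of its group for Pcx, G6pc, Pklr, Gckr and Gys2. G6pc was highest in the Rosa26 group at 3 weeks.

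Among the gluconeogenic enzymes, Pcx was the member with the same direction by guide at both times. Pcx (chromosome 19, 4510472 to 4621752, plus strand) encodes pyruvate carboxylase, which makes oxaloacetate from pyruvate in mitochondria. At 3 weeks it had 514, 644, 486, 451 and 507 normalised CPM in replicates 1 to 5 of the Rosa26 group and, for HIRA, 462, 421, 390.1, 434 and 401. For 6 months the Rosa26 libraries had 577, 676, 489.7, 642 and 483 normalised CPM and those of HIRA 409, 526, 367, 453 and 604. At 3 weeks a single HIRA library reached the range of the controls, and at 6 months the HIRA libraries labelled replicates 2 and 5 did. The log2 fold change was -0.30 ± 0.13 at 3 weeks (SE, 95% interval -0.58 to -0.03, edgeR adjusted p = 0.492) and -0.28 ± 0.13 at 6 months (95% interval -0.55 to -0.01, adjusted p = 0.304). The 2 comparisons use separate libraries. Without the discordant library the value at 6 months was -0.39 ± 0.13 (adjusted p = 0.113). Lrfn4, which overlaps Pcx on the opposite strand, held 0.987% as many counts.

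Pck1 (chromosome 2, 173153048 to 173159273, plus strand) encodes the cytosolic phosphoenolpyruvate carboxykinase. At 3 weeks it had 2247, 2211, 3581, 3628 and 2537 normalised CPM in the Rosa26 group, with 3991, 766, 1903, 1604 and 1723 for HIRA. In the HIRA group 4 libraries lay below all controls and replicate 1 lay above them. HIRA against Rosa26 gave a log2 fold change of -0.51 ± 0.32 (95% interval -1.17 to 0.16, edgeR adjusted p = 0.724), and -0.92 without HIRA 3 weeks replicate 1 (adjusted p = 0.307). At 6 months the Rosa26 group had 1909.8, 2053, 976, 2141 and 2487 normalised CPM and the HIRA group 1832, 3002, 1345, 1999.6 and 2479.9. The groups overlapped over most of their range, and the log2 fold change was 0.16 ± 0.32 (adjusted p = 0.877, 95% interval -0.51 to 0.82). It was 0.10 without the discordant library and -0.01 without Rosa26 6 months replicate 3.

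Fbp1 (chromosome 13, 62864753 to 62888282, minus strand) encodes fructose-1,6-bisphosphatase. It ranged from 954 to 1068 normalised CPM in the Rosa26 group at 3 weeks, and from 932 to 1399 for HIRA, where replicate 1, the library with the highest Pck1, was also highest. At 6 months the ranges were 917 to 1217 and 852 to 1135 normalised CPM. The log2 fold changes were 0.07 ± 0.11 at 3 weeks (edgeR adjusted p = 0.931, 95% interval -0.16 to 0.31) and -0.14 ± 0.11 at 6 months (adjusted p = 0.612, 95% interval -0.37 to 0.10).

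G6pc (chromosome 11, 101367561 to 101377903, plus strand) encodes the catalytic subunit of glucose-6-phosphatase, which releases free glucose in the last step shared by gluconeogenesis and glycogen breakdown. At 3 weeks it had 425, 334, 735, 772 and 596 normalised CPM in the Rosa26 group, with 514, 231, 369, 275 and 277 for HIRA. Replicates 2, 4 and 5 of the HIRA group lay below every control, and replicates 1 and 3 lay within the control range. The log2 fold change was -0.78 ± 0.34 (95% interval -1.48 to -0.08, edgeR adjusted p = 0.496). For 6 months the Rosa26 libraries had 229, 183, 53.6, 199 and 355 normalised CPM and those of HIRA 271, 276, 198, 205 and 359.6. The HIRA libraries then lay within or just above the control range, and the log2 fold change was 0.36 ± 0.34 (adjusted p = 0.667), or 0.22 without the discordant library (adjusted p = 0.805). It was 0.12 without Rosa26 6 months replicate 3, the lowest control, and 0.66 without replicate 5, the highest (adjusted p = 0.869 and 0.365). The difference in G6pc by guide thus had opposite signs at the 2 times, and the test of that change gave 1.14 ± 0.47 log2 units (adjusted p = 0.724).

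The change of the guide effect with time was tested for all members. None passed the adjusted p, as was so for every gene tested (0% with both thresholds and 0% by the adjusted p alone, with 6.62% at an unadjusted p under 0.05). G6pc was the 1 member of 8 with an unadjusted p under 0.05. Pck1 followed in size at 0.66 ± 0.45 log2 units (edgeR adjusted p = 0.837, and 1.08 without HIRA 3 weeks replicate 1), and the other 6 lay between -0.23 (Gckr) and 0.09 (Gys2). Without the discordant library G6pc had 1.00 and Pck1 0.60, and the other 6 lay between -0.36 (Pklr) and -0.08 (Pcx), with Gys2 at -0.26.

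Neither glycolytic member passed the adjusted p by guide. Pklr (chromosome 3, 89136142 to 89146784, plus strand) had 179.9, 183, 198, 331 and 306 normalised CPM in the Rosa26 group at 3 weeks, with 214, 244, 191, 302 and 241 for HIRA, and the means were 239 and 238. For 6 months the Rosa26 libraries had 299, 217, 263, 288 and 153 normalised CPM and those of HIRA 145, 265, 122, 223 and 324, where it spread more widely. The log2 fold changes were -0.01 ± 0.24 (edgeR adjusted p = 0.997, 95% interval -0.51 to 0.50) and -0.18 ± 0.24 (adjusted p = 0.794, 95% interval -0.68 to 0.33), and the second was -0.37 without the discordant library (adjusted p = 0.445). Hcn3, on the opposite strand across Pklr, held 6.82% as many counts, and the strand setting of the counting was not stated.

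Gckr (chromosome 5, 31297443 to 31327314, plus strand) ranged from 259 to 312 normalised CPM in the Rosa26 group and from 250.2 to 323 in the HIRA group at 3 weeks. At 6 months it ranged from 244 to 332 normalised CPM in the Rosa26 group, and the HIRA libraries fell into 206, 221 and 238, below every control, and 295 and 304, within the control range. Its log2 fold change was 0.02 ± 0.12 at 3 weeks (edgeR adjusted p = 0.994) and -0.21 ± 0.12 at 6 months (adjusted p = 0.390). Without the discordant library the latter was -0.29 ± 0.11 (adjusted p = 0.192).

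Of the glycogen enzymes, Gys2 (chromosome 6, 142422613 to 142473109, minus strand), the liver glycogen synthase, had 102, 79.7, 95.2, 103 and 96.7 normalised CPM in the Rosa26 group at 3 weeks and, for HIRA, 147, 92.4, 81.4, 117 and 119. For 6 months the Rosa26 libraries had 106, 87.0, 96.2, 94.5 and 84.6 normalised CPM and those of HIRA 84.8, 109.5, 68.2, 102 and 219. The discordant library stood at 219, far above the other 19, and it set the direction at 6 months. By guide the log2 fold change was 0.22 ± 0.22 at 3 weeks (edgeR adjusted p = 0.866, and 0.10 without HIRA 3 weeks replicate 1) and 0.32 ± 0.22 at 6 months (adjusted p = 0.527), but -0.04 ± 0.15 at 6 months without that library (adjusted p = 0.936).

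Pygl (chromosome 12, 70190811 to 70231488, minus strand), the liver glycogen phosphorylase, had 382 to 585 normalised CPM in the Rosa26 group at 3 weeks, with 459 to 512 for HIRA. At 6 months it had 409.6 to 496 and 321 to 468 normalised CPM. The ranges overlapped at both times, with log2 fold changes of 0.03 ± 0.11 (edgeR adjusted p = 0.979, 95% interval -0.20 to 0.26) and -0.13 ± 0.11 (adjusted p = 0.641, 95% interval -0.36 to 0.10).

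**Figure D2:**
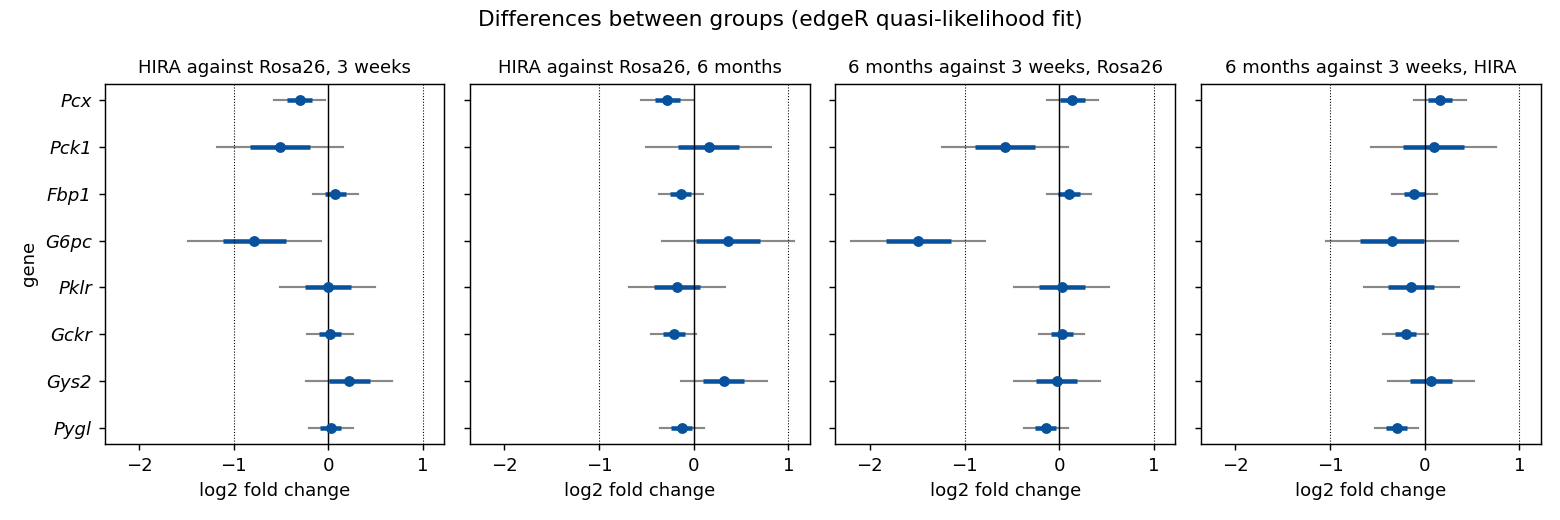
Log2 fold change (horizontal axes) of the 8 genes (vertical axis) in the comparisons by guide and by time. Points are edgeR estimates, thick bars ± 1 SE, thin bars 95% intervals, and dotted lines mark a log2 fold change of 1 in either direction. G6pc at 6 months against 3 weeks in the Rosa26 groups, at -1.49, is the 1 value beyond them.

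The comparison of 6 months with 3 weeks in the Rosa26 groups held the largest difference of any member, in G6pc. Its 5 values at 6 months (53.6 to 355 normalised CPM) overlapped those at 3 weeks (334 to 772) only through replicate 5 at 6 months and replicate 2 at 3 weeks. Its log2 fold change was -1.49 ± 0.34 (95% interval -2.20 to -0.78), and its edgeR adjusted p of 0.0590 was above the threshold, so that 0 of 8 members passed, where 0.162% of all genes passed both thresholds and 0.324% the adjusted p alone. The adjusted p of G6pc was under 0.05 with DESeq2 (0.00229, where 1.02% of all genes passed both thresholds), without a filter on low counts (0.0370, 0.154%), with edgeR's filterByExpr (0.0465, 0.32%) and without Rosa26 6 months replicate 5 (0.0397, 0.11%). Without Rosa26 6 months replicate 3, which had the lowest G6pc, the log2 fold change was -1.25 (adjusted p = 0.0813). In that library the Kupffer markers summed to 1721 CPM, against 236 to 409 in the rest of its group, and their part in the result was not tested. Pck1 also had a negative value, at -0.57 ± 0.32 (adjusted p = 0.487), while Fbp1, Pcx, Gckr, Pklr, Gys2 and Pygl lay between -0.14 and 0.14. At an unadjusted p under 0.05, 1 of 8 members was lower against 12.8% of all genes, and 0 of 8 separated the groups completely against 3.5%.

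Dbp and Igfbp1, which follow the clock and insulin, had extreme values in the same group. Dbp, a clock output factor, had 1.52 to 3.54 normalised CPM in the Rosa26 group at 3 weeks, against 9.05 to 104 in the HIRA group at 3 weeks, 18.1 to 95.1 in the Rosa26 group at 6 months and 3.75 to 115 in the HIRA group at 6 months. Igfbp1, which insulin represses, was named after its values were seen and had 143 to 559 normalised CPM in the Rosa26 group at 3 weeks and 16.1 to 234, 40.2 to 128 and 12.7 to 102 in the other 3 in the same order, where the 12.7 is the discordant library and the other 4 had 59.7 to 102. Like G6pc, Igfbp1 reached its highest values in the Rosa26 group at 3 weeks, where all 5 values of Dbp lay below those of the other groups. Their part in the differences in G6pc was not tested, and that group is shared by the comparison by guide at 3 weeks and the comparison by time.

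In the HIRA groups, 6 months against 3 weeks, 0 of 8 members passed, where 0.0569% of all genes passed both thresholds and 0.0656% the adjusted p alone. Pygl had -0.30 ± 0.11 log2 units (edgeR adjusted p = 0.416), the 1 of 8 members with an unadjusted p under 0.05, against 8.95% of all genes. G6pc had -0.35 ± 0.33 (adjusted p = 0.829), with -0.49 without the discordant library and -0.14 without HIRA 3 weeks replicate 1. No member separated the times completely, where 1.47% of all genes did.

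Within groups several members varied together. For each pair, log2 CPM was centred on the group mean over the 20 libraries, and the correlation was tested by 100000 permutations of the values within groups (two-sided, adjusted over 44 relations, of which 28 were pairs of members). G6pc and Pck1 had the closest relation, with a Pearson r of 0.78 (permutation p = 1e-05, the smallest these permutations can give, adjusted 0.00044) and a Spearman rho of 0.87 (permutation p = 3e-05, adjusted 0.00132). It stayed at 0.78 without the 2 libraries farthest from the median of G6pc and without the discordant library. Both genes were lowest of their group in Rosa26 6 months replicate 3, at 53.6 and 976 normalised CPM, and in HIRA 3 weeks replicate 2, at 231 and 766, and both were highest in HIRA 3 weeks replicate 1. In Rosa26 6 months replicate 3 the hepatocyte markers summed to 83904.5 CPM, the lowest of the 20 libraries, and the Kupffer markers to 1721. The part of cell composition in the correlations was not tested. The promoters printed above hold TTACGTNA in both genes, a match of letters whose part in this relation was not tested.

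Pklr varied with the glycogen genes. Its r was 0.71 with Pygl (permutation p = 0.00484, adjusted 0.0532; rho 0.75, permutation p = 0.00349, adjusted 0.0384) and 0.67 with Gys2 (permutation p = 0.00213, adjusted 0.0469; rho 0.63, permutation p = 0.0054, adjusted 0.0475). Without the 2 libraries farthest from the median of Pklr these were 0.79 and 0.60, and without the discordant library they were 0.70 and 0.58. Gys2 and Pygl, which act in opposite directions on glycogen, had r 0.53 (permutation p = 0.0284, adjusted 0.156) and rho 0.71 (permutation p = 0.00108, adjusted 0.0158). G6pc and Pklr, at opposite ends of the pathway, had r 0.03 (permutation p = 0.891, adjusted 0.911), 0.40 without the 2 libraries farthest from the median of G6pc and -0.07 without the discordant library. The difference between these correlations was not tested. Of the 28 pairs 2 passed an adjusted p of 0.05 by Pearson. No pair had a negative r, but 3 did without the discordant library.

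**Figure D3:**
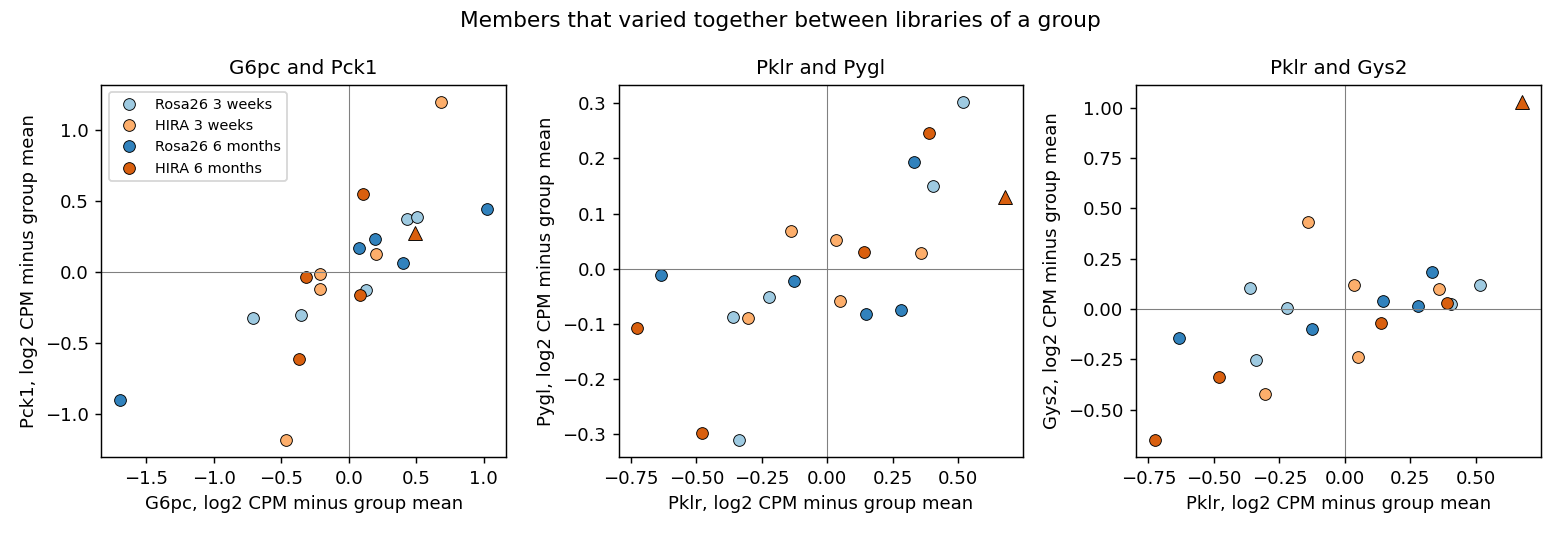
Log2 CPM minus the group mean of G6pc against Pck1, Pklr against Pygl and Pklr against Gys2 (axes in log2 units) in the 20 libraries. Colours give the group and the triangle is the discordant library, which lies at the upper right for Pklr and Gys2. G6pc and Pck1 vary together, with r 0.78.

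Dbp and Igfbp1 were set against each member in the same way. Pklr had r 0.67 with Dbp (permutation p = 0.0041, adjusted 0.0532; rho 0.72, permutation p = 0.00104, adjusted 0.0158) and 0.67 without the 2 libraries farthest in Dbp. Pck1 had r 0.60 with Igfbp1 (permutation p = 0.0234, adjusted 0.156; rho 0.56, permutation p = 0.0197, adjusted 0.109) and G6pc 0.42 (permutation p = 0.0269, adjusted 0.156; rho 0.53, permutation p = 0.0261, adjusted 0.115), neither of which passed after adjustment. G6pc and Dbp had r -0.23 within groups. Gys2 had r 0.60 with Dbp (permutation p = 0.0696, adjusted 0.217; rho 0.57, permutation p = 0.0199, adjusted 0.109). Pcx went the other way with Igfbp1, at r -0.36 (permutation p = 0.094, adjusted 0.225; rho -0.46, permutation p = 0.0405, adjusted 0.162).

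By the same centred values, the genes most like each member among 12903 genes with at least 1 CPM were ranked by Pearson r over the 20 libraries, as a description. For G6pc these were Slc25a25 (r 0.90), Lipa and Fbxo8, and for Pck1 they were Wbp1l (0.91), Cpeb2 and Ell2. For Pklr they were Tkt (0.94), which encodes transketolase of the pentose phosphate pathway, Slc25a21 (0.92) and Slc2a2 (0.91), which encodes the hepatocyte glucose transporter. For Pcx they were Hgs (0.89), Zfand2b and Phykpl, for Gckr Tmie (0.89), Prr14 and Sirt2, and for Pygl they included Fam13a (0.86) and Gphn. Fbp1 had the least close neighbours, Ctcfl (0.79), Zbtb45 and Amdhd1 (0.73). Those of Gys2 were Eif2ak1 (0.91), Wbp2 (0.91) and Sephs2 (0.90), and these were 0.82, 0.79 and 0.78 without the discordant library.

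Ratios of counts within a library set opposing steps against each other, without correction for length and with no test. For Pck1 to Pklr, which oppose each other at phosphoenolpyruvate, the mean log2 ratio was 3.58 ± 0.40 in the Rosa26 group at 3 weeks (SD, n = 5) and 2.89 ± 0.97 in the HIRA group. It was 2.94 ± 0.78 and 3.34 ± 0.29 at 6 months, in the same order. For Gys2 to Pygl it was -2.32 ± 0.15 and -2.16 ± 0.27 at 3 weeks and -2.22 ± 0.11 and -1.88 ± 0.54 at 6 months, where the discordant library had -0.98.

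The other genes of the same pathways were taken from lists of 20 gluconeogenic, 27 glycolytic and 27 glycogen genes and 28 regulators, none of them members. None passed both thresholds in any contrast of the edgeR fit. At 3 weeks, at an unadjusted p under 0.05, 2 of 20 gluconeogenic genes were higher and 0 lower in the HIRA group, 1 and 2 of 28 glycolytic entries (Aldoa has 2 identifiers), 2 and 0 of 27 glycogen genes, and 3 and 4 of 28 regulators. These shares stand beside 8.87% of all genes. At 6 months the counts were 1 higher and 5 lower, 5 and 0, 3 and 2, and 1 and 2, beside 15.5%. The median log2 fold changes were 0.02, 0.04, -0.01 and 0.04 at 3 weeks and -0.03, 0.18, 0.03 and 0.01 at 6 months in the same order of lists. Those at 6 months were, without the discordant library, -0.07, 0.12, 0.04 and 0.06, with 4, 6, 6 and 3 genes at an unadjusted p under 0.05, beside 17.7% of all genes at that setting.

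Pck2, which encodes the mitochondrial counterpart of Pck1, was among the 2 gluconeogenic genes with the smallest p at both times. At 3 weeks it had 7.91, 8.29, 7.77, 7.71 and 8.00 normalised CPM in the Rosa26 group and, for HIRA, 11.5, 12.6, 10.5, 11.0 and 9.63. For 6 months the Rosa26 libraries had 5.34, 7.18, 7.79, 6.53 and 7.57 normalised CPM and those of HIRA 12.8, 11.0, 11.8, 11.1 and 4.12. The groups did not overlap at 3 weeks, as was so for 2.69% of all genes. At 6 months 4 HIRA libraries lay above every control while the discordant library lay below them. In the fit the log2 fold change was 0.47 ± 0.19 at 3 weeks (edgeR adjusted p = 0.463) and 0.57 ± 0.19 at 6 months (adjusted p = 0.150). Without the discordant library it was 0.76 ± 0.11 at 6 months (adjusted p = 0.00361), which passed the adjusted p, as did 1.74% of all genes at that setting, but not the fold threshold, which 0.449% passed as well. When only the 10 libraries of a time were fitted, the adjusted p was 0.0287 at 3 weeks, where 0.734% of all genes passed, and 0.393 at 6 months, where 0% passed. With all 4 groups in the fit, leaving out a library of that time gave 0.486 to 0.644 at 3 weeks. Pck2 and Pck1 had log2 fold changes of opposite sign at 3 weeks.

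Of the other list genes with the smallest p, Ldha, the lactate dehydrogenase subunit, had -0.56 ± 0.17 log2 units at 3 weeks (edgeR adjusted p = 0.219) and 0.03 at 6 months. Irs2, an adaptor of the insulin receptor, had -0.93 ± 0.26 at 3 weeks (adjusted p = 0.176) and -0.65 ± 0.26 at 6 months (adjusted p = 0.222). Without HIRA 3 weeks replicate 1, which had 54.1 normalised CPM of Irs2 against 17.6 to 30.9 in the rest of its group, it passed both thresholds at 3 weeks (-1.25, adjusted p = 0.0420), as did 0.044% of all genes at that setting. Leaving out the library with the highest Irs2 of its group was bound to enlarge this difference. Mlxipl, which encodes ChREBP, the factor that binds the carbohydrate response element, had 492 to 581 normalised CPM in the Rosa26 group at 3 weeks, with 658 to 795 for HIRA, without overlap, as was so for 2.69% of all genes. Its log2 fold change was 0.43 ± 0.13 at 3 weeks (adjusted p = 0.237) and 0.03 ± 0.13 at 6 months, where it was -0.05 without the discordant library. Pklr, whose promoter holds that element, had -0.01 at 3 weeks, and a link between Mlxipl and Pklr was not tested.

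Gpt, the alanine aminotransferase gene, had 0.31 ± 0.14 log2 units at 3 weeks and -0.32 ± 0.14 at 6 months (edgeR adjusted p = 0.543 and 0.281), and Pfkm, a muscle-type phosphofructokinase, had 0.29 ± 0.11 at 3 weeks (adjusted p = 0.425). Among the glycogen genes, Ppp1r3e, a glycogen-targeting subunit of protein phosphatase 1, had 0.30 ± 0.13 and 0.40 ± 0.13 at the 2 times (adjusted p = 0.492 and 0.128), Stbd1, a glycogen-binding protein, 0.37 ± 0.15 at 3 weeks (adjusted p = 0.465) and Epm2a, the glycogen phosphatase laforin, -0.49 ± 0.18 at 6 months (adjusted p = 0.188). At 6 months Pfkfb3, which makes the activator of phosphofructokinase, had 0.76 ± 0.23 (adjusted p = 0.0940), Gpi1 0.27 ± 0.09 (adjusted p = 0.145, and 0.17 without the discordant library), the forkhead factor Foxa3 0.75 ± 0.26 (adjusted p = 0.152) and the glucocorticoid receptor gene Nr3c1 -0.18 ± 0.06 (adjusted p = 0.149). None of these passed the edgeR adjusted p. With DESeq2, Irs2 at 3 weeks (adjusted p = 0.0434) and Pfkfb3 and Nr3c1 at 6 months (0.0323 and 0.0161) did, without passing the fold threshold. By DESeq2 1.37% of all genes with an adjusted p passed it at 3 weeks and 6.22% at 6 months. Without the discordant library, 2 of the 20 gluconeogenic genes passed the edgeR adjusted p at 6 months against 1.74% of all genes, and neither passed the fold threshold. They were Pck2 and Ldhd, a D-lactate dehydrogenase named after its values were seen (-0.58 ± 0.14, adjusted p = 0.0374, against 0.318 with that library).

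**Figure D4:**
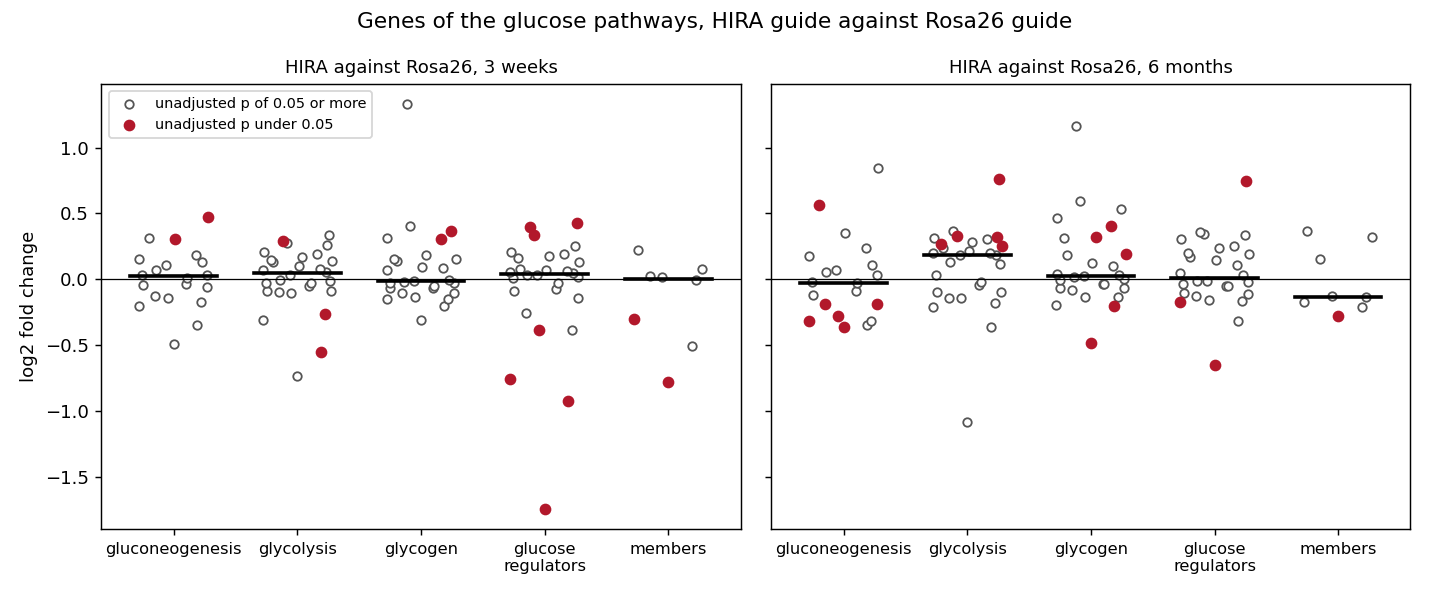
Log2 fold change of the HIRA against the Rosa26 group (vertical axes) for the genes of 4 pathway lists and the 8 members (horizontal axes), at 3 weeks and 6 months. Each point is a gene entry, red where the unadjusted p is under 0.05, and the bar is the list's median. The medians lie between -0.13 and 0.18, and no gene shown passed the edgeR adjusted p.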

How the data were processed

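RNA-seq of polyA RNA was measured in 20 liver libraries, grouped by the sample titles. Per the study's methods and the submitters' processing notes, the authors aligned reads to mm10 with STAR. The methods name HOMER for counting and the notes list HTSeq and Cufflinks, with the strand setting not given in the sources used here. The authors deposited raw counts per gene, used in all tests, and FPKM values, used for levels per length and for an alternative on log2(FPKM + 1).

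Counts were fitted with edgeR 4.0.16 (glmQLFit and glmQLFTest, TMM, a mean per group over all 20 libraries) after genes under 10 total counts were removed, and Benjamini-Hochberg adjustment ran over all 22867 genes. A call needed an adjusted p under 0.05 and an absolute log2 fold change over 1. Normalised CPM are counts scaled to the TMM library size, and log2 CPM used a prior count of 2. Depth was similar in all libraries, and 40 replicate pairs differed by more than sampling noise (chi-square per degree of freedom 13.7 to 109). Alternatives were DESeq2 1.42.0, its size factors, 2 other filters, the contrast's groups alone, a replicate block, limma 3.58.1 on FPKM and leaving out each library. The fits were checked on simulated data. R 4.3.3, Python 3.11.15 and matplotlib 3.10.9 were used.

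The members and lists were chosen with earlier results of these data known. Besides the members, list genes called in a contrast, the 2 list genes with the smallest p per list and guide contrast, the 3 genes most like each member, Hira and genes that check labels or cell types were named, with clock genes only beside a member's result. Positions are GENCODE M21 on GRCm38, and promoters are RefSeq on GRCm38.p6. A ratio and a gene most like a member are not reported here.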

Additional observations from a re-analysis of the deposited data

Results flagged for a closer look

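Of 32 sets of 5 libraries (8 members in 4 groups, log2 CPM), 2 held a library far from the rest, with a gap to its neighbour above 0.71 of the range, where chance flags about 1 in 20. Pck1 in Rosa26 6 months replicate 3, at 976 normalised CPM, had a gap of 0.718 of the range, and G6pc was also lowest there. Pygl in Rosa26 6 months replicate 1, at 496 normalised CPM, had a gap of 0.747. Without Rosa26 6 months replicate 3 the log2 fold change of Pck1 by guide at 6 months was -0.01 in place of 0.16, and that of G6pc 0.12 in place of 0.36.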

How the results depend on the processing

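No member was called by guide under any alternative. Of 752 member values under alternatives, 705 kept their direction and side of the thresholds, 5 passed thresholds not passed before and 42 reversed, and the cause was not tested. The 5 were G6pc at 6 months against 3 weeks in the Rosa26 groups, where 1 member was called with DESeq2 (-1.48), no filter on low counts (-1.49, edgeR adjusted p = 0.0370), filterByExpr (-1.48, 0.0465), the replicate block (-1.58, 0.0461) and without Rosa26 6 months replicate 5 (-1.78). The shares of all genes called there were 1.02%, 0.154%, 0.32%, 0.267% and 0.11% in the same order. Leaving out each library gave 0 to 1 members called and an adjusted p of up to 0.175 for G6pc.

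The number of genes called moved more. At 3 weeks it was 26, and 69 with DESeq2, 11 with limma on FPKM, 61 with the groups of the contrast alone and 3 to 30 with a library left out (3 without HIRA replicate 4 or 5). At 6 months it was 76, and 127, 18, 0 and 18 to 109 (18 without Rosa26 replicate 4). The 0 is from edgeR, where 2629 of 20832 genes had an unadjusted p under 0.05. For the change of the guide effect with time it was 0, also with DESeq2, and 0 to 1 with a library left out (1 without HIRA 6 months replicate 4). Between times it was 37 in the Rosa26 groups, and 156, 9, 67 and 1 to 54 (1 without Rosa26 3 weeks replicate 1), and 13 in the HIRA groups, and 74, 3, 8 and 5 to 25, with 25 without a filter. The replicate block gave 61 and 26 genes between times. Libraries with the same number correlated at -0.309 to 0.335 and no comparison had all pairs over 0.1, so the numbers were not taken as pairs; each library correlated best with its own number in 0 to 2 of 5.

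The reversed value farthest from 0 was Gys2 by guide at 6 months (0.32), which was negative without HIRA 6 months replicate 5. By guide at 3 weeks Pklr became 0.013 with the replicate block and 0.061 with limma on FPKM, and between times limma on FPKM gave -0.068 for Gckr (Rosa26) and -0.037 for Gys2 (HIRA). With a library left out, the log2 fold changes by guide at 3 weeks spanned -0.11 to 0.14 for Pklr, -0.024 to 0.066 for Gckr, -0.044 to 0.11 for Pygl and -0.039 to 0.12 for Fbp1, and at 6 months -0.010 to 0.29 for Pck1 and -0.039 to 0.46 for Gys2. The change of the guide effect spanned -0.082 to 0.10 for Pcx and -0.26 to 0.24 for Gys2. Between times in the Rosa26 groups the spans were -0.022 to 0.087 for Gckr, -0.060 to 0.17 for Pklr and -0.084 to 0.0079 for Gys2, and in the HIRA groups -0.29 to 0.22 for Gys2, -0.16 to 0.0060 for Fbp1, -0.11 to 0.51 for Pck1 and -0.34 to 0.016 for Pklr. No member held under 53.6 normalised CPM in any library, so counting error was small beside the spread between libraries.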
